A study of Mus musculus with 4 samples.

Results

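The alpha and mu classes of the glutathione S-transferases were followed through liver RNA sequencing of mice without the RNA-editing enzyme ADAR2. The set held 10 of the 25655 genes in the count table, each matched by its symbol. They were the alpha-class genes Gsta1, Gsta2, Gsta3, Gsta4 and Gm3776 and the mu-class genes Gstm1, Gstm2, Gstm3, Gstm4 and Gstm6. The set was chosen because Gsta1, Gstm3 and Gm3776 had been seen to be lower in the knockout livers. The differences between genotypes given for these 10 genes are therefore a description. Counts of these genes past a p threshold are given only as part of that description and support nothing.

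Glutathione S-transferases join the tripeptide glutathione to electrophilic compounds, such as drug metabolites and aldehydes from lipid peroxidation, so that the products can be exported from the cell. The soluble enzymes work as dimers of subunits of the same class, and hepatocytes carry large amounts of alpha, mu and pi class subunits. Several alpha and mu genes are known targets of NRF2, the transcription factor that responds to oxidants and electrophiles, and of the xenobiotic receptors CAR and PXR.

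Bulk polyadenylated RNA was sequenced from livers of 2 genotypes, with 2 libraries each. HFD-WT livers were ADAR2+/+/GluR-B R/R and HFD-KO livers were ADAR2-/-/GluR-B R/R. Both groups thus carried the GluR-B R allele, which encodes the edited form of a glutamate receptor subunit and lets mice without ADAR2 survive. All mice received a high-fat diet for 12 weeks from an age of 5 weeks, so no chow-fed liver is part of the comparison. ADAR2 was missing from the whole body, on a mixed B6129S background. The labels give neither the sex nor how many mice made up a library. The study describes a concentration on males and names more mice per group for its gene set analysis of these livers than there are libraries here, so a library may hold RNA of several mice. The p-values below therefore measure only the spread between these libraries, which may be technical.

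Total counts ran from 24480798 to 28691330 per library, and 3 counts corresponded to 0.104 to 0.126 CPM (read counts scaled to a common library size). Adarb1, the gene encoding ADAR2, was at 15.7 and 19.8 CPM in HFD-WT and at 6.23 and 9.55 CPM in HFD-KO. Its groups did not overlap, but transcript was still counted in the knockout (log2 fold change -1.17, with a standard error, SE, of 0.20 and an edgeR adjusted p of 0.159). Across the 12967 genes tested, 7 were higher (0.054%) and 3 lower (0.0231%) in HFD-KO at an adjusted p under 0.05, together 0.0771%. At an unadjusted p under 0.05, 551 were higher (4.25%) and 613 lower (4.73%), a balance that became 346 and 894 when libraries were scaled by total count alone. These counts rested on single libraries, falling to 0 and 0 without HFD-WT replicate 2 (255 higher and 207 lower genes at an unadjusted p under 0.05) and climbing to 376 and 329 without HFD-KO replicate 1 and to 226 and 185 without HFD-KO replicate 2.

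All 10 transferases had enough reads to be tested, and all 10 had a negative log2 fold change, as did 48.45% of all genes tested. By size, 3 genes lay below -1, where 0.7172% of all genes tested lay. A further 4 lay between -1 and -0.4, and 3 lay between -0.2 and 0. In 9 of the 10 genes both HFD-KO libraries were below both HFD-WT libraries, an arrangement found in 20.3% of all genes tested. Gsta3 was the exception. At an adjusted p under 0.05, 2 of the 10, Gsta1 and Gstm3, were among the 3 lower genes, which make up 0.0231% of those tested. At an unadjusted p under 0.05 the count was 7 of 10, where 4.73% of all genes were lower. Since the set was chosen from this same contrast, these counts describe it and support nothing. The median log2 fold change was -0.60 over the 10 genes, -0.63 over the alpha class and -0.44 over the mu class, against 0.01 over all genes tested. In bulk liver, fewer cells that express a gene and less RNA per cell cannot be told apart.

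**Figure D1:**
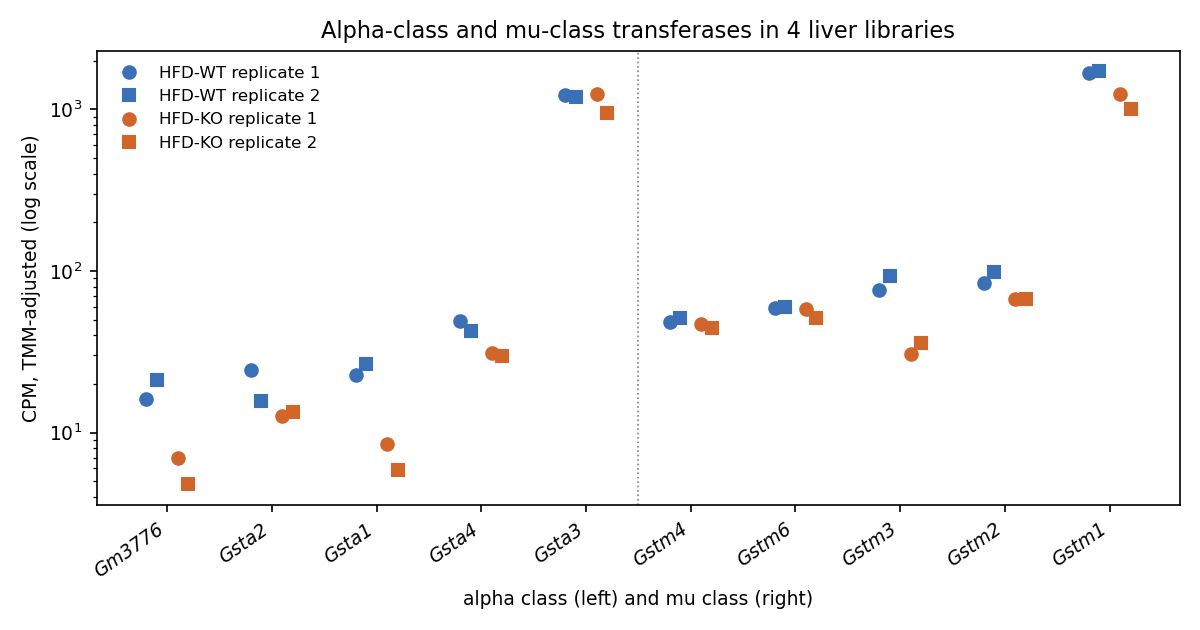
TMM-adjusted CPM, on a log axis, of the 5 alpha-class genes (left) and the 5 mu-class genes (right), with 1 point for each of the 4 libraries, HFD-WT in blue and HFD-KO in orange. Both HFD-KO points sit below both HFD-WT points for 9 genes and overlap them for Gsta3.

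Gsta1 and Gm3776, whose separate log2 fold changes were the lowest of the set, belong with Gsta2 to a group of near-identical alpha-class genes on chromosome 9. Gsta1 and Gsta2 encode alpha-class subunits long known as inducible by antioxidants in mouse liver, and Gm3776 is a gene model without a family symbol. The coding sequences of Gsta1 and Gm3776 matched at 99.7% of their 672 bases. They differed by the substitutions T25C and C591T, with the Gsta1 base first and positions counted from 1 at the A of the start codon. The stretches around both positions are shown because nearly all other coding bases cannot tell the transcripts apart. In the first stretch, positions 1 to 50, the capital marks position 25.
Gsta1: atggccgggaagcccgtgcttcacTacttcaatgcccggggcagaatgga
Gm3776: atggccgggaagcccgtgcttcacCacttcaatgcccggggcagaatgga
Gsta2: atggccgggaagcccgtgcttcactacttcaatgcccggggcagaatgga
In the second stretch, positions 566 to 616, capitals mark position 591 in Gsta1 and Gm3776, and in Gsta2 the base by which it departs from Gsta1.
Gsta1: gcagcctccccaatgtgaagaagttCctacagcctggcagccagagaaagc
Gm3776: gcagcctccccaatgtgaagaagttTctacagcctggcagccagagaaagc
Gsta2: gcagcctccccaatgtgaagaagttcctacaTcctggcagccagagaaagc
Gsta2 carried the Gsta1 base at both positions and matched Gsta1 over 97.5% and Gm3776 over 97.2% of the coding sequence.

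This likeness bears on the counts. Of the 776 windows of 100 bases in the Gsta1 transcript, 635 also occurred in a transcript of another gene (81.8%). The same held for 663 of 775 windows in Gm3776 (85.5%) and for 270 of 771 in Gsta2. A single read of the length used here that lies within such a window cannot be assigned to one gene by its own sequence. The reads were paired, so a mate outside such windows could still assign the pair, which these shares do not take into account. How the authors' software divided shared reads is not given in the sources used here. The separate values of these genes are therefore uncertain, whereas their sum does not depend on the division among them, only on whether shared reads were kept. A further gene that shares windows with them, Gsta5, had 3 and 2 reads in HFD-WT and 3 and 0 reads in HFD-KO.

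Gsta1 (ENSMUSG00000074183, GRCm39 chromosome 9, 78137938 to 78149966, plus strand) was at 22.6 and 26.6 CPM in HFD-WT and at 8.51 and 5.86 CPM in HFD-KO. The lower HFD-WT library was still far above the higher HFD-KO library. Group means were 24.6 ± 2.82 and 7.19 ± 1.87 CPM (SD, n = 2), so the knockout stood at 29.2% of the wild type, with a log2 fold change of -1.77 (SE 0.17). Gm3776 (ENSMUSG00000111709, GRCm39 chromosome 9, 78164411 to 78176448, plus strand) showed the same arrangement, at 16.1 and 21.1 CPM in HFD-WT and at 6.99 and 4.77 CPM in HFD-KO. Its log2 fold change was -1.65 (SE 0.20), and the knockout stood at 31.6% of the wild type. Gsta1 reads outnumbered Gm3776 reads by a ratio of 1.41 and 1.26 in HFD-WT and of 1.22 and 1.23 in HFD-KO. The ratio thus stayed in a narrow range while both genes differed between genotypes. How far the division of shared reads set this ratio was not tested.

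Gsta2 (ENSMUSG00000057933, GRCm39 chromosome 9, 78238300 to 78263070, minus strand) differed less and less evenly. It was at 24.5 and 15.8 CPM in HFD-WT and at 12.6 and 13.4 CPM in HFD-KO. The groups did not overlap, but the HFD-WT libraries lay farther from each other than the lower of them lay from HFD-KO. The log2 fold change of -0.63 (SE 0.19) became -0.29 without HFD-WT replicate 1. In that library Gsta2 was above Gsta1, with a Gsta1 to Gsta2 read ratio of 0.922, whereas in HFD-WT replicate 2 the ratio was 1.68. In HFD-KO the ratio was 0.675 and 0.439, so Gsta2 had more reads than Gsta1 in both knockout libraries.

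The reads of Gsta1, Gm3776 and Gsta2 were also summed. Whether the uneven Gsta2 values of the wild-type libraries came from the division of shared reads was not tested. The sum was 63.1 and 63.5 CPM in HFD-WT and 28.1 and 24.0 CPM in HFD-KO. Means were 63.3 ± 0.250 and 26.1 ± 2.91 CPM (SD, n = 2). The wild-type libraries were almost equal, and the knockout stood at 41.2% of them, a log2 fold change of -1.28, close to the -1.35 of Gstm3.

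The remaining alpha-class genes behaved differently from each other. Gsta4 (ENSMUSG00000032348, GRCm39 chromosome 9, 78090056 to 78116631, plus strand) encodes the subunit that conjugates 4-hydroxynonenal, an aldehyde from lipid peroxidation. It was at 49.4 and 42.8 CPM in HFD-WT and at 31.1 and 29.9 CPM in HFD-KO, without overlap, a log2 fold change of -0.60 (SE 0.097). None of its 100-base windows occurred in another gene's transcript, so its count was free of the division among the near-identical genes. Gsta3 (ENSMUSG00000025934, GRCm39 chromosome 1, 21310813 to 21335885, plus strand) encodes the subunit known in mice for detoxifying the epoxide of aflatoxin. It was at 1221 and 1196 CPM in HFD-WT and at 1250 and 954 CPM in HFD-KO. The groups overlapped, since HFD-KO replicate 1 was the highest of the 4 libraries and HFD-KO replicate 2 the lowest. The log2 fold change of -0.13 (SE 0.14) was -0.34 without HFD-KO replicate 1 and 0.05, the opposite sign, without HFD-KO replicate 2.

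Among the mu-class genes, Gstm3 differed most. Gstm3 (ENSMUSG00000004038, GRCm39 chromosome 3, 107871012 to 107876599, minus strand) encodes an inducible mu subunit that is widely used as a readout of NRF2 activity in mouse liver. It was at 76.8 and 93.2 CPM in HFD-WT and at 30.7 and 36.1 CPM in HFD-KO. The groups lay far apart, and the knockout stood at 39.3% of the wild type, a log2 fold change of -1.35 (SE 0.12). Leaving out single libraries gave -1.49 to -1.20. Of its 100-base windows, 13.8% occurred in another gene's transcript.

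Gstm1 (ENSMUSG00000058135, GRCm39 chromosome 3, 107919571 to 107925289, minus strand), the main mu-class gene of liver, had the most reads of the family. It was at 1674 and 1720 CPM in HFD-WT and at 1238 and 1007 CPM in HFD-KO. The wild-type libraries were close together and both above the knockout libraries, which were more spread. Means were 1697 ± 32.7 and 1122 ± 163 CPM (SD, n = 2), a log2 fold change of -0.60 (SE 0.12). The 66.1% of the wild type that remained was the same share as for Gsta4. Of its 100-base windows, 9.05% occurred in another gene's transcript.

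Gstm2 (ENSMUSG00000040562, GRCm39 chromosome 3, 107889018 to 107893769, minus strand), another mu subunit gene, was at 84.5 and 97.9 CPM in HFD-WT and at 67.4 and 67.0 CPM in HFD-KO. The knockout libraries were nearly equal and both below the wild type, with a log2 fold change of -0.44 (SE 0.095). Gstm4 (ENSMUSG00000027890, GRCm39 chromosome 3, 107947724 to 107952210, minus strand) was at 48.6 and 50.9 CPM in HFD-WT and at 47.2 and 44.1 CPM in HFD-KO. Gstm6 (ENSMUSG00000068762, GRCm39 chromosome 3, 107846163 to 107851065, minus strand) was at 59.3 and 59.7 CPM in HFD-WT and at 58.6 and 51.1 CPM in HFD-KO. Neither gene overlapped between the groups, yet the gaps were small, and both had a log2 fold change of -0.12 (SE 0.084 and 0.093). Of the 10 genes, 8 were lower in HFD-KO replicate 2 than in HFD-KO replicate 1, against 50.7% of all genes tested, and 3 were lower in HFD-WT replicate 2 than in HFD-WT replicate 1.

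Levels of different genes can be compared only per length, for which the deposited TPM values, which scale reads by transcript length and library, were used. In HFD-WT, Gstm1 was highest at 2390 and 2517 TPM, followed by Gsta3 at 1437 and 1442 TPM. Every other gene of the set was far below both. Below Gsta3 came Gstm2 (141 and 168 TPM) and Gstm3 (117 and 145 TPM), whose ranges overlapped. Gstm6, at 91.6 and 94.6 TPM, stood apart from Gsta4, at 77.6 and 69.0 TPM, and Gsta4 from the genes below it. Gstm4 and Gsta1 overlapped, as did Gm3776 and Gsta2, the last pair spanning 28.7 to 49.3 TPM.

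In HFD-KO the same 2 genes led, with a smaller ratio between them in each library. Gstm1 was at 1691 and 1413 TPM and Gsta3 at 1407 and 1103 TPM. The Gstm1 to Gsta3 ratio in TPM was 1.66 and 1.75 in HFD-WT and 1.20 and 1.28 in HFD-KO. Gstm3 had rank 4 in HFD-WT and rank 6 in HFD-KO, where its 44.5 and 53.8 TPM overlapped those of Gstm4 and Gsta4. By mean TPM, Gsta2 moved the other way, from rank 10 in HFD-WT, where it overlapped Gm3776, to rank 8 in HFD-KO. There it stood above Gsta1 and Gm3776, which overlapped each other at the bottom of the knockout order with 10.7 to 18.5 TPM. The order among these near-identical genes depends on the division of shared reads, which is not known.

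Because Gstm1 and Gsta3 hold most of the family's transcripts, class totals followed these genes. The alpha class summed to 1334 and 1302 CPM in HFD-WT and to 1309 and 1008 CPM in HFD-KO. These groups overlapped, with a log2 difference of -0.19. Without Gsta3 the alpha sum was 112.5 and 106.3 CPM in HFD-WT and 59.2 and 53.9 CPM in HFD-KO, a log2 difference of -0.95. The rest of the alpha class thus stood at 51.7% of the wild type, against 87.9% for the class as a whole. The mu class summed to 1943 and 2021 CPM in HFD-WT and to 1441 and 1205 CPM in HFD-KO, without overlap, a log2 difference of -0.58. Leaving out Gstm1 changed this little, to -0.51.

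In shares of the family's summed TPM, Gstm1 made up 53.8% and 54.3% in HFD-WT and 48.4% and 48.7% in HFD-KO. Gsta3 made up 32.4% and 31.1% in HFD-WT and 40.3% and 38.0% in HFD-KO. The knockout livers thus had a smaller part of their alpha and mu transcripts from Gstm1 and a larger part from Gsta3, with no overlap for either gene. Gsta1 went from 1.16% and 1.34% in HFD-WT to 0.531% and 0.452% in HFD-KO. Within the mu class the share of Gstm1 overlapped between genotypes, at 85.5% and 84.3% against 85.3% and 82.9%. Shares sum to a whole, so a higher share of Gsta3 states nothing about its own level.

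**Figure D2:**
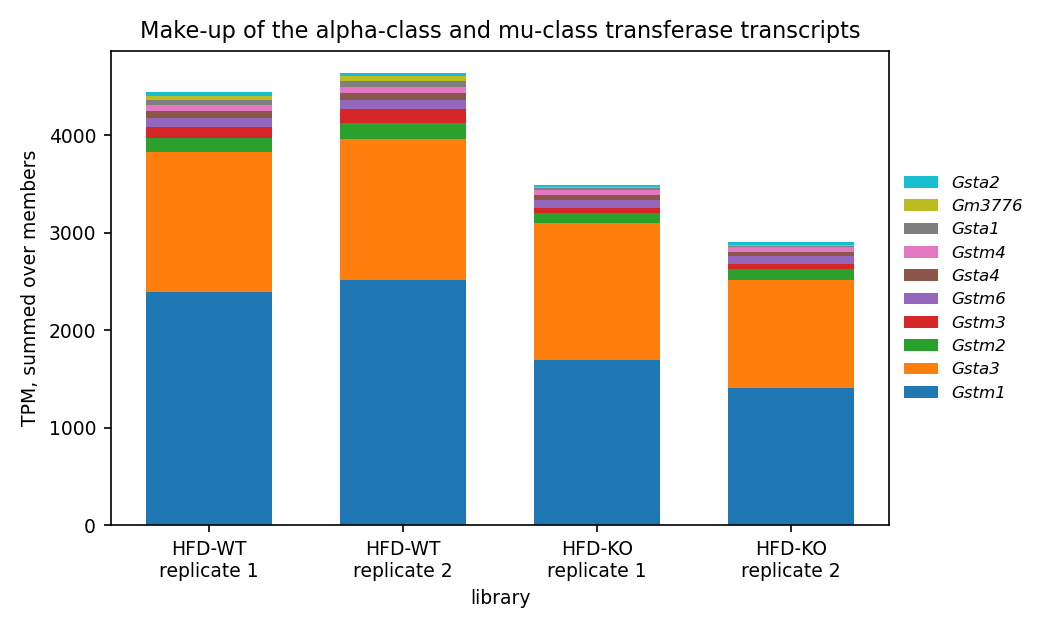
TPM of the 10 genes stacked for each library, with the bar height giving their sum. The bars reach 4441 and 4635 TPM in HFD-WT and 3492 and 2901 TPM in HFD-KO, and Gstm1 (blue) and Gsta3 (orange) fill most of every bar.

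Apart from Gsta3, the genes lie in a pair of clusters. The mu genes occupy 106 kb of chromosome 3 (GRCm39 107846163 to 107952210) and the other alpha genes 173 kb of chromosome 9 (78090056 to 78263070). Within 250 kb of the mu cluster 11 other genes were tested, with a median log2 fold change of 0.01. Of these, 1 was higher (Csf1, 0.30) and none was lower at an unadjusted p under 0.05, beside 4.25% and 4.73% of all genes. None of them passed at an adjusted p under 0.05 by edgeR. Among so few genes, counts near these shares say little. Gstm5 and Gstm7, mu-class genes of the same neighbourhood that were not part of the set, had log2 fold changes of -0.11 (SE 0.13) and 0.09 (SE 0.088). Gstm7 was at 32.9 and 29.5 CPM in HFD-WT and at 33.5 and 32.9 CPM in HFD-KO, overlapping. Low values within the mu cluster therefore did not extend to every gene of the class.

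Around the alpha cluster, 7 other genes were tested and none passed in either direction, also at an unadjusted p under 0.05. Beside 4.25% higher and 4.73% lower among all genes, this too says little for so few genes. Their median log2 fold change was -0.02. Elovl5, a fatty acid elongase gene, was at -0.01 and Fbxo9 at -0.02. The lowest of them, Cgas, was at -0.51, with a standard error of 0.44. Next to Gsta3 on chromosome 1, Tmem14a was at -0.55 (SE 0.20), past an unadjusted p under 0.05 but at an adjusted p of 0.486 by edgeR. Gsta3 itself overlapped between the groups.

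**Figure D3:**
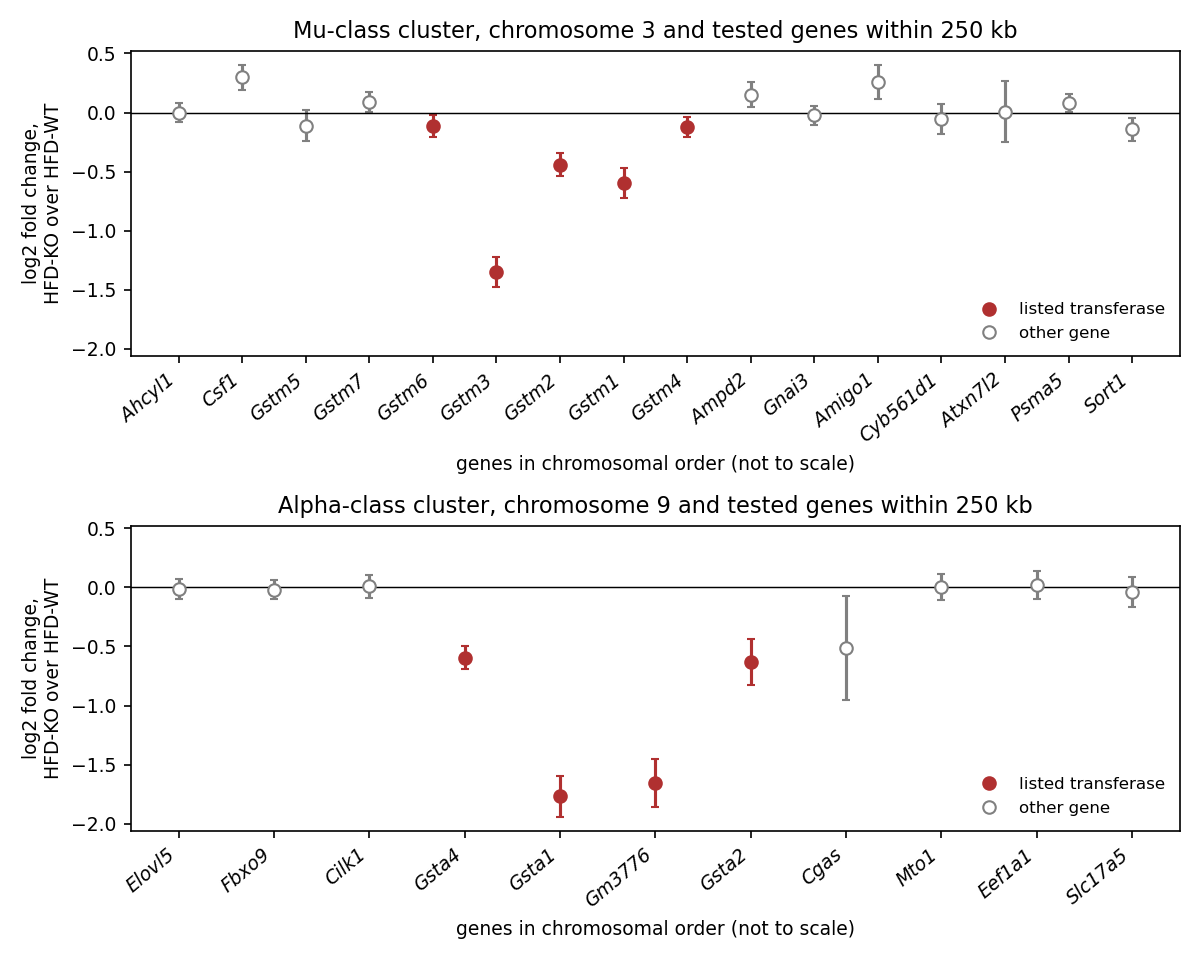
Log2 fold change of HFD-KO over HFD-WT with its standard error for the tested genes of the mu cluster (upper panel) and the alpha cluster (lower panel) and within 250 kb of them, in chromosomal order and not to scale. The set's genes (filled) lie below 0, down to -1.35 for Gstm3 and -1.77 for Gsta1, and the neighbouring genes (open) have medians of 0.01 and -0.02.

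Identity of coding sequence did not follow the size of the difference throughout the family. Gaps in the alignment were counted against a match. Alpha-class pairs then matched over 65.6% to 99.7% of aligned positions and mu-class pairs over 71.7% to 84.8%. The low end of the mu range, Gstm1 with Gstm4, held 78 gap positions beside 130 mismatches. Gstm6 was taken at 699 bases, longer than the 657 of Gstm2, Gstm3 and Gstm4, which also added gaps. Pairs from different classes matched over 47.8% to 51.2%. By this measure Gstm3 was closest to Gstm2 at 84.8%, with 100 mismatches and no gap, although their log2 fold changes were -1.35 and -0.44. For Gstm1, at -0.60, a longer coding sequence was used, of 735 bases against 657. It had only 69 mismatches with Gstm3, but 78 gap positions lowered the identity to 80.0%. By mismatches alone, Gstm1 was thus closer to Gstm3 than Gstm2 was. Gsta3 matched Gsta1 over 74.0%, with log2 fold changes of -0.13 and -1.77.

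The promoters of the near-identical alpha genes were compared because these genes stood lower together. RefSeq start sites on GRCm38.p6 were available for 9 of the 10 genes, each with 250 bases before and 50 after the start, and Gsta4 was missing. These coordinates are of an older build than the gene positions above. Gsta1 is shown over its last 150 bases before the start (chr9:78230519-78230668, plus strand), beside the aligned bases of Gm3776 (chr9:78256992-78257141, plus strand) and Gsta2 (chr9:78347151-78347298, minus strand). Counted from their own start sites, the aligned bases ran from -137 to 13 in Gm3776 and from -153 to -6 in Gsta2. The Gm3776 stretch thus includes bases after its annotated start. Capitals mark bases that differ from Gsta1.
Gsta1: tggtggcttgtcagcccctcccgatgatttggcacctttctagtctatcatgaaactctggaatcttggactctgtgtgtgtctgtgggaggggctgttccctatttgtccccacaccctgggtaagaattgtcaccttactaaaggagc
Gm3776: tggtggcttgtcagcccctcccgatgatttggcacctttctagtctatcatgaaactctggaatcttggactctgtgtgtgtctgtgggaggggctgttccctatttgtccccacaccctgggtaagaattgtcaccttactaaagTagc
Gsta2: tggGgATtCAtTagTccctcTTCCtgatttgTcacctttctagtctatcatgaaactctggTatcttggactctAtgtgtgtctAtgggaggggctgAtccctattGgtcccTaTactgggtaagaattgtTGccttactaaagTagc
Gm3776 differed from Gsta1 by 1 substitution in this stretch and Gsta2 by 22 substitutions and 2 missing bases.

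Promoter windows were searched on both strands for TGACNNNGC, the core of the antioxidant response element bound by NRF2, for the HNF1 half-site GTTAAT and for the TATA box TATAAA. No matches named here overlapped each other. The antioxidant core was present in 12.4% of the 32851 promoter windows of the genome, GTTAAT in 7.1% and TATAAA in 13.6%. Of the 9 genes, only Gsta3 had the antioxidant core, in capitals below, and it also had GTTAAT on the reverse strand near the start of the stretch shown (chr1:21240435-21240494, plus strand). Gsta2 had TATAAA on the reverse strand, outside the stretch shown. Gstm1 had TATAAA 30 bases before one of its start sites, also in capitals (chr3:108017819-108017898, minus strand), and the same stretch before the start of Gstm3 (chr3:107969175-107969254, minus strand) had no match.
Gsta3: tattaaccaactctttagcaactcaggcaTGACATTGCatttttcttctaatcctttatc
Gstm1: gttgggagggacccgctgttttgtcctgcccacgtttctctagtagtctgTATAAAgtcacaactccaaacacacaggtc
Gstm3: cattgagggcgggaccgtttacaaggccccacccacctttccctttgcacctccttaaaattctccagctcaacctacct
A match describes the letters only, and a window without one states nothing about the factor.

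Transferases and related genes outside the set were followed next, among them Gsta5, Gstm5 and Gstm7 of the same classes. Of 24 listed genes 22 were in the table and 18 were tested, with a median log2 fold change of -0.09. At an adjusted p under 0.05 none passed by edgeR and 1, Mgst3, by DESeq2. At an unadjusted p under 0.05, 2 were higher (Gstt2 and Ptges) and 1 was lower (Mgst3), where 4.25% of all genes were higher and 4.73% lower. The lower count was 3 without HFD-KO replicate 1 and 2 without HFD-KO replicate 2 or HFD-WT replicate 2, and the higher count was 1 without HFD-WT replicate 2. Ptges, a prostaglandin E synthase gene, was near the lower limit, at 0.207 and 0.254 CPM in HFD-WT and at 0.798 and 1.47 CPM in HFD-KO. Mgst3, a membrane-bound transferase and peroxidase gene, was at 37.4 and 35.2 CPM in HFD-WT and at 26.1 and 19.8 CPM in HFD-KO, a log2 fold change of -0.66 (SE 0.13, edgeR adjusted p = 0.223). Gstt2, of the theta class, was at 76.4 and 67.6 CPM in HFD-WT and at 85.7 and 87.1 CPM in HFD-KO, a log2 fold change of 0.26 (SE 0.089, edgeR adjusted p = 0.451). The pi-class gene Gstp1 was at 796 and 829 CPM in HFD-WT and at 763 and 671 CPM in HFD-KO, with a log2 fold change of -0.18 (SE 0.10, edgeR adjusted p = 0.664). The 11 genes of the pi, theta, zeta, omega and kappa classes summed to 2213 and 2172 CPM in HFD-WT and to 2137 and 2019 CPM in HFD-KO. That is a log2 difference of -0.08, beside -0.19 for the 5 alpha genes and -0.58 for the 5 mu genes of the set. With Gstm5 and Gstm7 added, the mu sum was at -0.57. These differences between classes were not tested against each other.

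**Figure D4:**
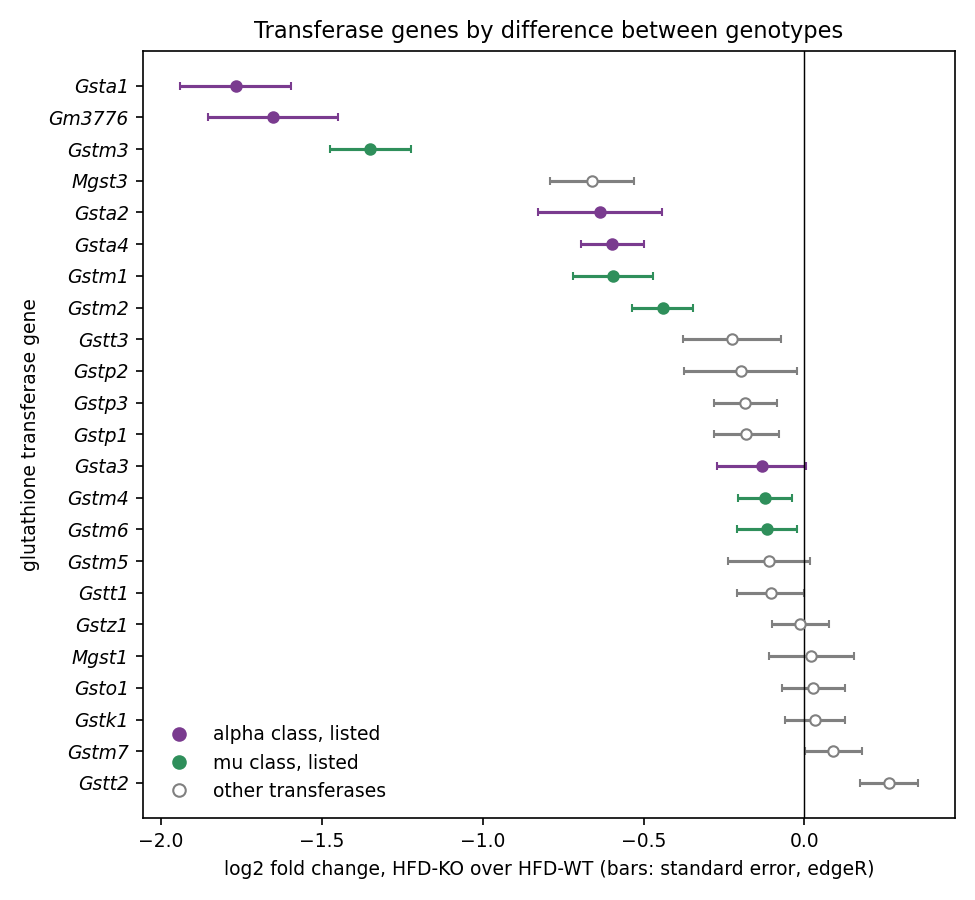
Log2 fold change of HFD-KO over HFD-WT with its standard error for the 10 alpha and mu genes (filled) and for the other tested Gst and Mgst genes (open), ordered by fold change. Ptges, at 2.26, and the listed Hpgds, Clic1, Clic4 and Gstcd are not drawn. The set runs from -1.77 for Gsta1 to -0.12 for Gstm4 and Gstm6, and the open points run from -0.66 for Mgst3 to 0.26 for Gstt2.

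Genes that make, use and export glutathione conjugates were read from lists. Of the 25 tested genes of glutathione synthesis and turnover, 1, Cbs, was higher and none was lower at an unadjusted p under 0.05, beside 4.25% higher and 4.73% lower among all genes, and none passed at an adjusted p under 0.05 by edgeR or DESeq2. Without HFD-KO replicate 1 the counts were 4 and 3, and the higher count was 0 without HFD-WT replicate 2 or HFD-KO replicate 2. Gclc and Gclm encode the subunits of glutamate-cysteine ligase, the rate-limiting enzyme of glutathione synthesis. Gclc was at 326 and 336 CPM in HFD-WT and at 323 and 284 CPM in HFD-KO (log2 fold change -0.12, SE 0.094, edgeR adjusted p = 0.738). Gclm was at 216 and 206 CPM in HFD-WT and at 216 and 209 CPM in HFD-KO (log2 fold change 0.01, SE 0.080, edgeR adjusted p = 0.977). Its sign turned to -0.03 when libraries were scaled by total count alone. Among 18 tested glutathione-dependent enzymes of other kinds 1 was lower at an unadjusted p under 0.05, namely Gpx4, which reduces lipid hydroperoxides (log2 fold change -0.35, SE 0.11, edgeR adjusted p = 0.414). Of 8 export genes 2 were lower at the same threshold, Abcc4 and Abcg2, at -0.89 and -0.26. Both are counts of a few genes to be read against the 4.73% of all genes that were lower. These counts of 1 and 2 were 2 and 4 without HFD-KO replicate 1 and both 0 without HFD-WT replicate 2, and the export count was 1 without HFD-WT replicate 1 or HFD-KO replicate 2. Neither list had a gene at an adjusted p under 0.05 by edgeR or DESeq2.

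The NRF2 list held 44 regulators and targets, of which 42 were tested, with a median log2 fold change of -0.13. None passed at an adjusted p under 0.05 by edgeR or DESeq2. At an unadjusted p under 0.05, 13 of 42 were lower, where 4.73% of all genes were, and 1 was higher, where 4.25% were. The lower count depended on single libraries, at 2 without HFD-WT replicate 2, 6 without HFD-WT replicate 1, 7 without HFD-KO replicate 2 and 21 without HFD-KO replicate 1. Both HFD-KO libraries were below both HFD-WT libraries in 21 of the 42, where 20.3% of all genes were so arranged, and above them in 3, where the background was 20.5%. Nfe2l2, which encodes NRF2, was at 74.0 and 75.8 CPM in HFD-WT and at 85.0 and 73.9 CPM in HFD-KO, overlapping (edgeR adjusted p = 0.829). Keap1, which encodes its inhibitor, was at 64.2 and 64.1 CPM in HFD-WT and at 65.5 and 75.4 CPM in HFD-KO (edgeR adjusted p = 0.711). The transcript of neither regulator passed the test.

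Of the targets, Cbr3, a carbonyl reductase gene, was at 3.94 and 5.24 CPM in HFD-WT and at 1.48 and 2.43 CPM in HFD-KO. Its log2 fold change was -1.23 (SE 0.29, edgeR adjusted p = 0.270). G6pdx, of the pentose phosphate pathway, was at -0.51 (SE 0.19, edgeR adjusted p = 0.496). Trib3, a pseudokinase gene that also responds to the integrated stress response, was at 0.52 (edgeR adjusted p = 0.445). The classic targets Nqo1 and Srxn1, named after their values were seen, were at -0.28 and -0.34 and passed only at an unadjusted p under 0.05. Cbr3 thus lay within its SE of Gstm3, at -1.35, and the other named targets lay closer to 0 than Gstm3, Gsta1 and Gm3776 did. The differences between genes were not tested.

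**Figure D5:**
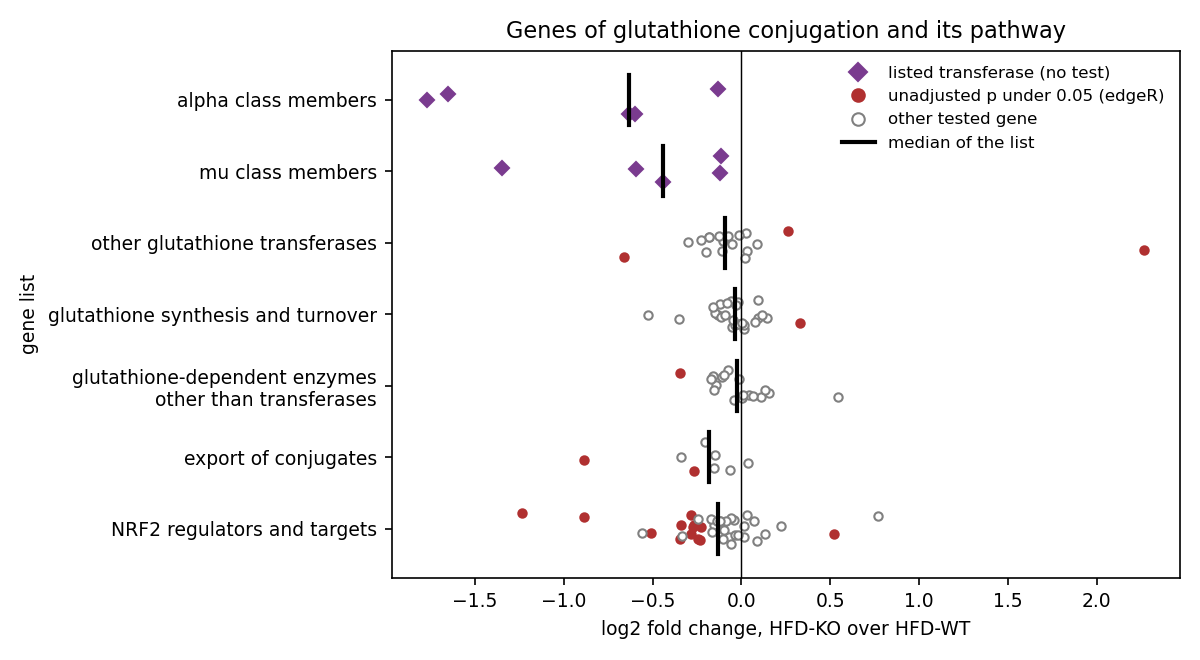
Log2 fold change of HFD-KO over HFD-WT for the 10 transferases and for the tested genes of 5 related lists. Diamonds mark the transferases, drawn without test results, and circles mark the genes of the other lists. Circles are filled where the unadjusted edgeR p was under 0.05, and a bar marks each list's median. The medians run from -0.63 for the alpha class to -0.03 for the glutathione-dependent enzymes, and most genes of the other lists lie near 0.

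Marker lists of liver cell types were read beside these values. Hepatocyte markers, which define the labelled tissue, summed to 91790 and 91200 CPM in HFD-WT and to 94140 and 109700 CPM in HFD-KO. Alb alone was at 53710 and 54900 CPM in HFD-WT and at 52680 and 66100 CPM in HFD-KO, and the other 8 markers summed to 38070 and 36300 CPM against 41470 and 43570 CPM. Serpina1c was the only one of these markers past an unadjusted p under 0.05, at a log2 fold change of 0.45. Kupffer cell and macrophage markers summed to 597 and 748 CPM in HFD-WT and to 508 and 457 CPM in HFD-KO. Of these 15 markers, 10 were lower at an unadjusted p under 0.05 (4 without HFD-WT replicate 2), where 4.73% of all genes were. The genes named by rule, Adgre1, Vsig4, Cd5l and Ctss, lay between -0.66 and -0.56, and the median of the list was -0.48. All 15 had reads, 1 had a positive log2 fold change (Marco, 0.46) and 4 overlapped between the groups. At an adjusted p under 0.05 none of the 15 passed by edgeR and 3 by DESeq2. Stellate cell markers summed to 464 and 523 CPM in HFD-WT and to 409 and 326 CPM in HFD-KO. Of these, 6 of 12 were lower at an unadjusted p under 0.05 (3 without HFD-WT replicate 2), again beside 4.73% of all genes. The genes named by rule, Col1a1, Col1a2, Col3a1 and Reln, lay between -0.87 and -0.53, and the median of the list was -0.32. In 3 of the 12 (Acta2, Rgs5 and Des) the log2 fold change was positive, up to 0.07, and 4 overlapped between the groups. At an adjusted p under 0.05 none of the stellate markers passed by edgeR and 2, Col1a1 and Reln, by DESeq2.

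Cholangiocyte markers summed to 86.4 and 106.3 CPM in HFD-WT and to 77.5 and 66.7 CPM in HFD-KO. Spp1, which was at -0.62, made up most of these sums, and the other 9 markers summed to 22.1 and 22.4 CPM in HFD-WT and to 23.7 and 23.8 CPM in HFD-KO. Endothelial markers lay at 456 to 511 CPM in HFD-WT and 448 to 451 CPM in HFD-KO. Their median log2 fold change was -0.05, with 4 of 12 positive and 8 overlapping between the groups. Only Lyve1, at -0.70, was lower at an unadjusted p under 0.05, beside 4.73% of all genes. Lymphocyte and plasma cell markers stood apart in HFD-KO replicate 1, at 143.7 CPM against 28.2 to 30.4 CPM in the other libraries, and Jchain was at 1.97. Erythroid markers reached 1148 CPM in HFD-KO replicate 2, against 601 to 811 CPM elsewhere, with Hbb-bs, Hba-a1 and Hba-a2 at 0.51 to 0.62. The part of these cell types in the transferase values was not tested.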

How the data were processed

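Liver RNA of 2 HFD-WT and 2 HFD-KO samples was sequenced by the authors as paired 100-base reads from a directional polyadenylated library and quantified in Partek Genomics Suite against GENCODE. The submitters' processing notes name GRCm39 and mm10, and gene positions in the table are of GRCm39. Software versions, strand use and the treatment of reads that match several genes are not given in the sources used here. The authors deposited raw read counts per gene, which were the basis of every fit. They also deposited TPM values, used for levels between genes, and RPKM values, which entered no result given here. A column of CPM scores on an adjusted library size, deposited by the authors, was not used. The members of the set and all lists were chosen with earlier results of these data known.

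Counts were fitted with edgeR 4.0.16 in R 4.3.3 (filterByExpr, TMM, quasi-likelihood test, two-sided, Benjamini-Hochberg over 12967 genes), with genotype as the only term. CPM in the text are TMM-scaled, computed here, and fold changes are HFD-KO over HFD-WT. The common coefficient of variation was 0.102. The procedure was also run on counts simulated with the spread fitted to these same libraries, and the outcome is not reported here. The text names all 10 transferases, Adarb1, Nfe2l2, Keap1, Gclc, Gclm and, per list, genes at an adjusted p under 0.05 and up to 4 with the largest change among those past an unadjusted p under 0.05, with a mean of at least 1 CPM and groups that did not overlap. Genes outside this rule (Ptges, Csf1, Gstm5, Gstm7, Gstp1 and the neighbours of the clusters) were named after their values were seen. Alternatives were other scalings (library size alone, DESeq2 1.42.0 size factors), no filter or a minimum of 1 CPM, DESeq2, a replicate block and each library left out. Coding sequences came from GENCODE M21 transcripts of GRCm38 (aligned with Biopython 1.88) and promoters from RefSeq. Identity was computed on coding bases in place of the planned protein comparison, and protein sequences were not used here.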

Additional observations from a re-analysis of the deposited data

How the results depend on the processing

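With 2 libraries per genotype, counts of genes past an adjusted p under 0.05 moved widely. For higher genes the 7 became 4 with library size alone, 81 without a filter, 4 with a minimum of 1 CPM and 56 with DESeq2, and 0 to 376 when single libraries were left out. For lower genes the 3 became 81 without a filter and 61 with DESeq2, and 0 to 329 when single libraries were left out. At an unadjusted p under 0.05, the 551 higher genes became 346 with library size alone, 304 with DESeq2 and 255 to 1095 without single libraries. The 613 lower genes became 894 with library size alone, 372 with DESeq2 and 207 to 1078 without single libraries. With the replicate number as a block, 12 genes were higher and 8 lower. The numbers share no stated source, and deviations of same-numbered libraries correlated at -0.0764, so they were not taken to pair the samples. The alpha sum ran from -0.39 to -0.01 and the mu sum from -0.72 to -0.46 without single libraries. Of 107 values of the 10 transferases under 11 alternatives, 99 moved by less than the replicate SD, 7 moved by more and 1 took the other sign, namely Gsta3, which ran from -0.34 to 0.048 without single libraries. Gclm took the other sign at -0.033 with library size alone and ran from -0.019 to 0.042 without single libraries, and Nfe2l2 ran from -0.019 to 0.182. Library size alone shifted the median log2 fold change of all genes by -0.046. The causes of these changes were not tested.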

Other observations

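Genes of the xenobiotic receptors CAR, PXR and AhR, which share conjugation targets with NRF2, lay in both directions. Of 36 listed genes 30 were tested. At an unadjusted p under 0.05, 5 of 30 were higher, where 4.25% of all genes were, and 8 lower, where 4.73% were, and 1, Cyp2c54, was higher at an adjusted p under 0.05 by edgeR, beside 0.054% of all genes, with 4 higher and 3 lower by DESeq2. The unadjusted lower count moved in both directions when single libraries were left out. Cyp2c54, an epoxygenase gene, was at 51.5 and 37.6 CPM in HFD-WT and at 129 and 108 CPM in HFD-KO (log2 fold change 1.41, SE 0.16, edgeR adjusted p = 0.0456). Without HFD-WT replicate 2 its adjusted p by edgeR was 0.214, with library size alone 0.0531 and with a minimum of 1 CPM 0.0605. It was thus higher in both knockout libraries while Gsta1 and Gstm3 were lower in both. Cyp2b10, the usual readout of CAR in mouse liver, was at 5.35 and 7.96 CPM in HFD-WT and at 1.22 and 3.22 CPM in HFD-KO (log2 fold change -1.60, SE 0.40, edgeR adjusted p = 0.329). That fold change was -1.04 without HFD-KO replicate 1 and -2.45 without HFD-KO replicate 2. Cyp3a11, the usual readout of PXR, was at 1546 and 1263 CPM in HFD-WT and at 691 and 831 CPM in HFD-KO (log2 fold change -0.88, SE 0.14, edgeR adjusted p = 0.115). Gadd45b, a stress-response gene that CAR induces, was at 1.17 and Cyp2c37 at 0.60, with adjusted p of 0.172 and 0.320 by edgeR.

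Markers of the pericentral and periportal zones of the liver lobule had medians near 0. Of 18 pericentral genes 2 were higher at an unadjusted p under 0.05, beside 4.25% of all genes, namely Avpr1a (log2 fold change 1.14) and Tbx3 (0.59), both at an adjusted p of 0.0693 by edgeR and both past the adjusted threshold by DESeq2, and the median of the list was 0.05. The pericentral count was 6 without HFD-KO replicate 2. Of 19 periportal genes 4 were lower at an unadjusted p under 0.05, beside 4.73% of all genes, namely Sds, Aldh1b1, Hsd17b13 and Uroc1, with adjusted p of 0.167 to 0.509 by edgeR, of which Aldh1b1 and Hsd17b13 passed by DESeq2, and the median was -0.02. The periportal count was 11 without HFD-KO replicate 2 and 1 without HFD-WT replicate 2. Without HFD-KO replicate 1 the lists turned the other way in part, with 7 periportal genes higher beside 3 lower and 2 pericentral genes lower beside 3 higher.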
